A study of Mus musculus with 14 samples.

Results

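The 35 genes described here encode the aminoacyl-tRNA synthetases of the mouse, 20 for the enzymes of the cytosol and 15 for those of mitochondria, whose symbols end in 2. They were chosen by symbol from 21000 protein-coding genes with a curated RefSeq transcript on GRCm38, and all 35 symbols were found. A list was taken to bind a gene if the centre of any of its ChIP-seq peaks lay within 2 kb of a transcription start site (TSS) of that gene. A wider rule took any peak centre between 10 kb before and 10 kb after the gene.

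The study followed cells of a mouse embryonic stem cell (ESC) line of strain 129, which carries a GFP reporter in the Brachyury gene, through 5 sorted stages of blood development. These were mesoderm (MES, Bry:GFP+ and Flk1-), hemangioblast (HB, Bry:GFP+ and Flk1+), hemogenic endothelium (HE, Tie2+, Kit+ and CD41-), hematopoietic progenitors (HP, CD41+) and macrophages (MAC, CD11b+), the last grown from CD41+ cells. C/EBPβ was mapped at all 5 stages, PU.1 (encoded by Spi1) and RUNX1 in HPs and MACs, GATA2 in HBs and HPs, GATA1 and GFI1B in HPs, and ELK4 in MES. Each of the 14 lists holds the peaks of 1 factor at 1 stage, so no comparison had replicates and none was tested. All cells came from 1 reporter line differentiated in culture, and the few HE cells were precipitated with mouse mRNA and histone 2B added as carriers. The lists run from 72 peaks (RUNX1 in MACs) to 82866 (PU.1 in MACs), each 400 bp wide and without a score. Their thresholds were set by eye, list by list, so numbers of bound genes are read against all coding genes within a list and not as amounts of binding between lists. The paper checked the precipitated DNA by quantitative PCR at known regions. It records no enrichment there for C/EBPβ in MES and HBs, GATA2 in HBs and RUNX1 in MACs. These samples were sequenced all the same. The sequencing depth behind the lists and the expression of the genes, including the marker genes of each stage, were not used here, and the set of all coding genes includes genes that these cells may not express.

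Aminoacyl-tRNA synthetases join each amino acid to its tRNA and so supply the ribosome. Most amino acids have one enzyme for the cytosol and another, encoded by a separate nuclear gene, for the mitochondrial matrix, while Gars (glycine) and Kars (lysine) each encode both forms. When amino acids run short, uncharged tRNA activates the kinase GCN2, translation of ATF4 rises, and ATF4 together with a C/EBP protein binds C/EBP-ATF composite elements, also called amino acid response elements, in genes of amino acid uptake, synthesis and tRNA charging. C/EBPβ on its own binds a palindrome of which TTGCNNAA is a shortened form, and it is best known in this system as a driver of macrophage genes. The paper also reports that most C/EBPβ binding before HPs and MACs fell at chromatin open in all stages, largely CpG island promoters. It proposes a wider role of the factor in development. Whether the synthetase promoters are of that kind was not examined here.

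The letters of the composite element, searched as TGATGNAA on both strands, lay under every C/EBPβ peak found at a synthetase promoter in MES, HBs and HPs. The stretches below are from the RefSeq sequence of GRCm38.p6, 30 bases each, read 5′ to 3′ on the strand given, with the match in capitals. They are 15 of the 18 matches under C/EBPβ peaks at synthetase genes, shown so that the recurring letters and their variants can be compared, and those of Aars and Nars are not printed. The first 8 lie under peaks found before the macrophage stage, and the last 7 lie under C/EBPβ peaks found in MACs alone. Capitals mark a match of letters, which is not evidence of a site in use.
Cars, chr7:143600045-143600074, plus strand: cttccagaatcTGATGCAAccgcggcgccg
Farsb, chr1:78488571-78488600, plus strand: acacgcgctgaTGATGCAAcggagccaccg
Farsb second match, chr1:78488456-78488485, plus strand: gcctacagttgTGATGGAAcccagggtacg
Gars, chr6:55037960-55037989, minus strand: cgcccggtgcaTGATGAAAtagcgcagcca
Iars, chr13:49682126-49682155, minus strand: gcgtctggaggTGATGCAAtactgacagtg
Mars1, chr10:127311638-127311667, plus strand: ggagcccacgcTGATGCAAtcggaaccggc
Sars, chr3:108444190-108444219, minus strand: ctcgggtagtcTGATGCAAtaggtctgcaa
Yars, chr4:129189895-129189924, plus strand: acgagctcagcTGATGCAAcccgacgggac
Eprs, chr1:185363259-185363288, minus strand: cacccacgcgcTGATGCAAcccgcgcgggt
Eprs second match, chr1:185363981-185364010, plus strand: ccatgtggggcTGATGAAAtttcttgcaac
Gars intron, chr6:55038939-55038968, plus strand: gctctggcgccTGATGCAAtcgtttgtcta
Tars, chr15:11399655-11399684, plus strand: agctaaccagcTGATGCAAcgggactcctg
Vars, chr17:35001988-35002017, plus strand: agaatgcaagaTGATGAAAtctcttccttc
Wars, chr12:108893505-108893534, minus strand: aaagggacagcTGATGCAAtgcaatgacaa
Mars2, chr1:55238368-55238397, plus strand: tgcgattactaTGATGAAAaggtggttaaa

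C/EBPβ was found at promoters of cytosolic synthetase genes from the first stage on. No mitochondrial one was listed before MACs, but the shares of all coding genes at those stages are so low that an absence from 15 genes is close to the background. In MES the C/EBPβ list held 7 of the 20 cytosolic genes (35%) and none of the 15 mitochondrial genes, against 1.72% of all coding genes. The 7 were Aars (alanine), Cars (cysteine), Iars (isoleucine), Mars1 (methionine), Nars (asparagine), Sars (serine) and Yars (tyrosine). In HBs it held 3 cytosolic genes (15%), Farsb, Iars and Sars, against 1.08% of all genes. Farsb encodes the β subunit of the phenylalanine enzyme. In the HE list, the shortest for this factor with 132 peaks, no synthetase promoter was bound, against 0.148% of all genes.

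In HPs the C/EBPβ list held 8 cytosolic genes (40.0%) and again no mitochondrial gene, against 4.07% of all coding genes. These were Aars, Farsb, Gars, Iars, Mars1, Nars, Sars and Yars, so Gars was first listed at this stage and Cars was the only gene of the MES list that was missing. In MACs 19 cytosolic genes (95.0%) and 9 mitochondrial genes (60.0%) were bound, against 37.7% of all coding genes. Dars (aspartate) was the only cytosolic gene without a macrophage C/EBPβ peak by this rule. The mitochondrial genes bound were Cars2, Ears2, Hars2, Mars2, Nars2, Rars2, Sars2, Wars2 and Yars2, and those not bound were Aars2, Fars2, Iars2, Lars2, Pars2 and Vars2. The cytosolic share lay above the mitochondrial share in each of the C/EBPβ lists that held a synthetase gene, and above that of all coding genes. These differences were not tested, because each stage has 1 list and the members were chosen with earlier results of the data known.

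**Figure D1:**
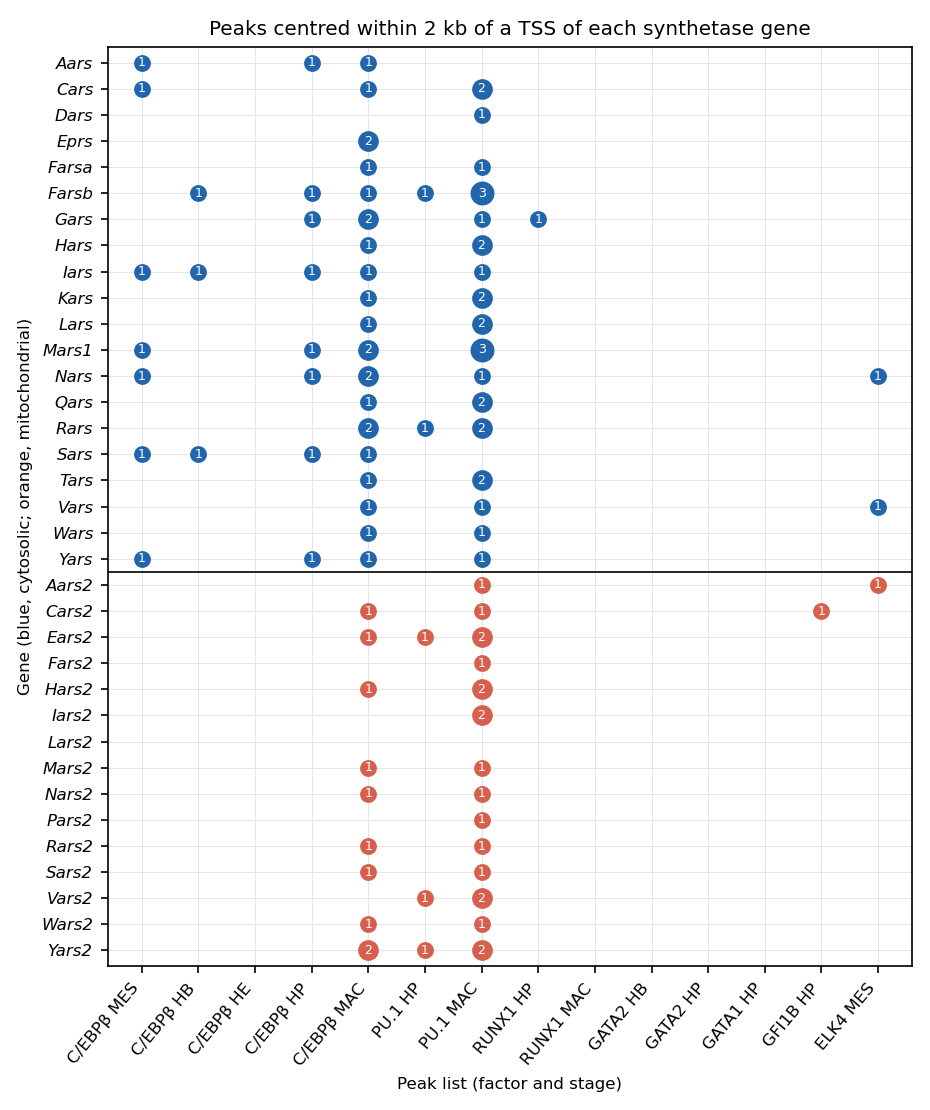
Number of peaks centred within 2 kb of a TSS, for each of the 35 synthetase genes (vertical axis, cytosolic in blue above the line, mitochondrial in orange below) in each of the 14 lists (horizontal axis). A circle carries its number of peaks, and an empty cell means that no peak was listed. The cytosolic genes fill part of the C/EBPβ columns of MES, HB and HP, in which the mitochondrial genes have no circle.

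Over MES, HBs, HEs and HPs together, 9 cytosolic genes (45.0%) and 0 mitochondrial genes had a C/EBPβ promoter peak, against 933 of the 21000 coding genes (4.44%). The 9 genes charge tRNAs for alanine, cysteine, phenylalanine, glycine, isoleucine, methionine, asparagine, serine and tyrosine. Of these, 8 have a mitochondrial counterpart among the genes studied, and none of the 8 was bound by C/EBPβ before MACs, which is again close to the share of all coding genes. In MACs 5 of the 8 were bound (Cars2, Mars2, Nars2, Sars2 and Yars2), against 37.7% of all coding genes. The phenylalanine enzyme of the cytosol has an α subunit, encoded by Farsa, whose promoter was bound in MACs alone, so the genes for the subunits of this enzyme differed in the stage at which C/EBPβ was first listed.

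Several cytosolic synthetases sit together in a multisynthetase complex, which 8 of the genes encode (Dars, Eprs, Iars, Kars, Lars, Mars1, Qars and Rars). C/EBPβ was listed before MACs at 2 of these 8 (25.0%), Iars and Mars1, and at 7 of the 12 others (58.3%), against 4.44% of all coding genes. In MACs the counts were 7 of 8 and 12 of 12, against 37.7%. This grouping was made after the values were seen, and the difference was not tested.

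**Figure D2:**
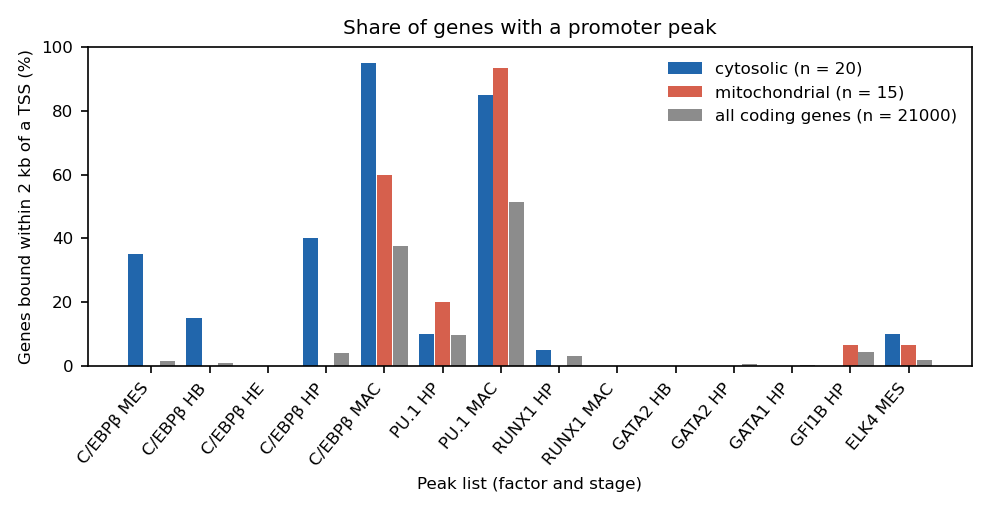
Percentage of genes (vertical axis) with a peak centred within 2 kb of a TSS in each list (horizontal axis), for the 20 cytosolic genes (blue), the 15 mitochondrial genes (orange) and the 21000 coding genes (grey). The bars have no error because each list is 1 sample. Blue bars exceed grey ones in the C/EBPβ lists of MES (35% against 1.72%), HB (15% against 1.08%), HP (40.0% against 4.07%) and MAC (95.0% against 37.7%).

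All 9 genes bound by C/EBPβ before MACs were also bound in MACs, and for all 9 the peaks of the different stages overlapped. Both were common among all coding genes. Of those bound before MACs 96.4% were also bound in MACs, and of those in more than 1 C/EBPβ list 95.8% had peaks that overlapped between the stages. The centres of 1 gene were spread over 14 to 70 bp, with a median of 26 bp. Of the genes in the MES list, 6 were again in the HP list, that is 85.7% of the synthetase genes of the MES list and 75.0% of those of the HP list. Over all coding genes, 82.3% of the genes in the MES list were also in the HP list and 34.7% of those in the HP list were in the MES list. Presence in MACs was common for all genes, as 97.7% of those bound in HPs were also bound in MACs.

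Iars, on chromosome 13, was among the 2 genes bound in MES, HBs, HPs and MACs. Its peak centres lay 21, 15, 11 and 1 bp downstream of the TSS in that order of stages, all in the 5′ UTR. Sars, on chromosome 3, was the other, and its peaks were in an intron, 1071, 1096, 1052 and 1050 bp downstream of the TSS. The 2 genes thus kept 1 narrow position each through the 4 lists, one at the start of the transcript and one inside the gene.

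The other early peaks were mostly at the TSS. At Yars the centres lay at 13 bp (MES), -6 bp (HP) and 7 bp (MAC) from the TSS, where negative values are upstream. At Nars they lay at -70, 0 and -14 bp for the same stages, and at Aars at -87, -122 and -99 bp. At Mars1 they lay in the 5′ UTR at 95, 120 and 121 bp. The peak of Cars was centred in the 5′ UTR at 54 bp in MES and 28 bp in MACs, and that of Gars upstream at -20 bp in HPs and -34 bp in MACs. Farsb was bound in an intron, at 353 bp (HB), 290 bp (HP) and 303 bp (MAC). In all, 6 of the 7 peaks in MES, 1 of the 3 in HBs and 6 of the 8 in HPs were centred within 200 bp of the TSS. This was not counted for all promoter peaks.

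**Figure D3:**
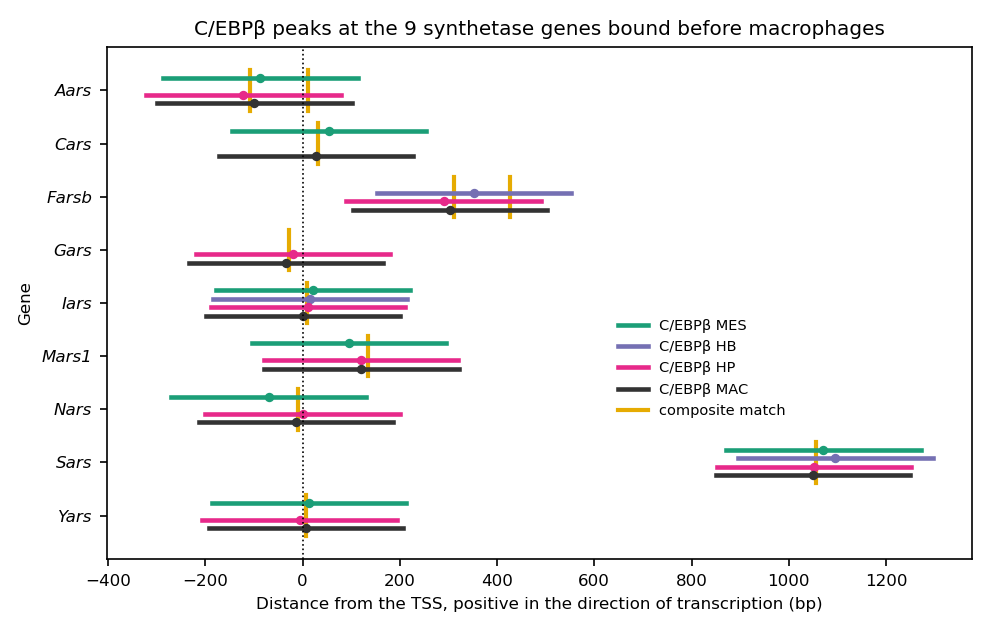
C/EBPβ peaks at the 9 synthetase genes (vertical axis) bound before macrophages that overlap between stages, drawn by distance from the TSS in bp (horizontal axis, dotted line at the TSS, positive values downstream). Each coloured bar is a peak of 400 bp with its centre as a dot, 1 colour per stage, and yellow ticks mark matches to the composite letters under these peaks. Peaks of the same gene lie on top of each other, and those of Sars, centred between 1050 and 1096 bp, lie farthest from the TSS.

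In MACs the promoters held more C/EBPβ peaks, in a list of 55471 peaks. The 24 peaks at cytosolic genes had a median distance of 311 bp from the TSS, and 10 of them lay within 200 bp. The 10 at mitochondrial genes had a median distance of 329.5 bp, with 3 of them within 200 bp. Second peaks appeared at Gars (946 bp downstream), Mars1 (-1278 bp) and Nars (1168 bp), beside the peaks already listed in HPs. Eprs (glutamate and proline), which carried no other promoter peak in any list, had macrophage C/EBPβ peaks at 224 and 1016 bp.

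The early synthetase peaks held other letters than most promoter peaks of the same lists. TGATGNAA matched in 7 of 7 peaks at synthetase genes in MES, 3 of 3 in HBs and 8 of 8 in HPs. Among all peaks centred within 2 kb of a coding TSS it matched in 11.7%, 9.66% and 10.6%. The 18 synthetase peaks lay at 9 genes, and a gene in more than 1 of these lists had the same match each time. The full scores of these lists are therefore not separate observations. TTGCNNAA, the C/EBP letters, matched in 0, 0 and 1 of the synthetase peaks (the 1 being that of Gars in HPs), and in 65.7%, 68.1% and 56.8% of all promoter peaks. Aligned base for base, the letters cannot match the same stretch, since they ask for different letters at the same place, but both can occur in 1 peak. All promoter peaks with the composite letters and without the C/EBP letters made up 8.02%, 7.25% and 6.78%.

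Of the 38 promoter peaks in MES that held the composite letters, 7 (18.4%) were at synthetase genes, as were 3 of 20 (15%) in HBs and 8 of 83 (9.64%) in HPs. A peak was searched over its whole width. The matches at synthetase genes lay close to the centre all the same, and all of these peaks held one also in their middle 200 bp, where 10.5%, 8.70% and 9.08% of all promoter peaks did. Closeness to the centre was common to all promoter peaks with the composite letters. Of these, 34 of 38 in MES, 18 of 20 in HBs and 71 of 83 in HPs held them in the middle 200 bp.

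In MACs the composite letters matched in 15 of the 24 C/EBPβ peaks at cytosolic genes (62.5%), in 1 of the 10 at mitochondrial genes (10.0%, Mars2) and in 8.64% of all promoter peaks. The C/EBP letters matched in 5 of 24 (20.8%), 4 of 10 (40.0%) and 34.9%. At each of the 9 genes bound before MACs, a macrophage peak covered a match that was also under an earlier peak. Of the 12 macrophage peaks at these 9 genes, 10 held the composite letters, and the second peaks of Mars1 and Nars did not. Of the 10 cytosolic genes bound in MACs alone, 4 had a peak with the composite letters (Eprs, Tars, Vars and Wars). The match of Mars2 lay in the coding exon, 108 bp from the peak centre, and not in the middle 200 bp of the peak. The genes bound in MACs alone and without the composite letters were Farsa, Hars, Kars, Lars, Qars and Rars among the cytosolic ones, and all mitochondrial ones but Mars2. These proportions were not tested, and a match does not show which protein of the C/EBP or ATF families was bound next to C/EBPβ.

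**Figure D4:**
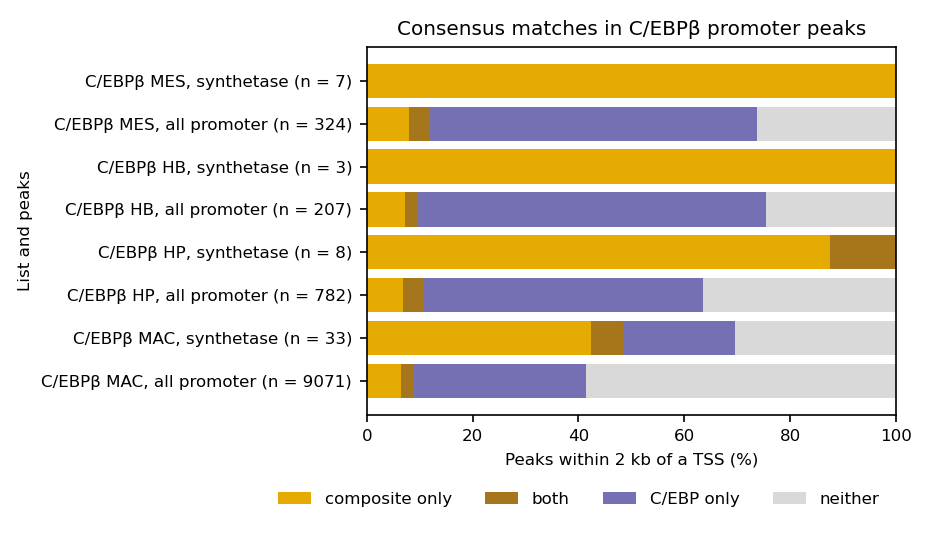
Percentage of C/EBPβ promoter peaks (horizontal axis) with the composite letters only, both, the C/EBP letters only or neither, for synthetase genes and for all promoter peaks of each list (vertical axis, number of peaks in brackets). Every bar sums to 100%. All synthetase peaks of MES, HB and HP hold the composite letters, while 62.0%, 65.7% and 52.9% of all promoter peaks in these lists hold the C/EBP letters only.

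Over all stages, 18 matches to the composite letters lay under C/EBPβ peaks at 14 synthetase genes, 13 cytosolic and 1 mitochondrial, and Aars, Eprs, Farsb and Gars had 2 each. The variable letter was C in 12, A in 5 and G in 1. The letter after TGATGCAA was T in 6 and C in 6 of those 12, and never A or G. The orientation was that of the gene in 8 of the 18. By annotation, 4 lay upstream of the gene, 5 in a 5′ UTR, 8 in an intron and 1 in a coding exon. The intronic match of Wars, which has 3 TSSs, lay at -308 bp from the nearest of them, so 13 of the 18 were downstream of the nearest TSS. The shared letters follow from the search itself, while the strand and the place within the gene differed between genes.

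At each gene bound early, a match lay within 60 bp of every C/EBPβ centre over it. It was at most 11 bp at Iars over 4 lists, at most 12 bp at Yars over 3 lists and at most 41 bp at Sars over 4 lists. At Mars1 it ran from 13 to 39 bp, at Cars from 3 to 23 bp, and at Nars from 4 to 60 bp. The second match of Aars (99 to 134 bp) and that of Farsb (74 to 137 bp) lay farther from the centres.

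PU.1, the ETS-family regulator needed for macrophages, was listed in HPs at 2 cytosolic genes (10.0%) and 3 mitochondrial genes (20.0%), against 9.67% of all coding genes. The peaks lay away from the TSS at Farsb (-1456 bp), Rars (arginine, 1165 bp), Ears2 (mitochondrial glutamate, -1596 bp) and Vars2 (mitochondrial valine, 1320 bp), and closer at Yars2 (mitochondrial tyrosine, -198 bp). The PU.1 letters GAGGAAGT matched, on either strand, in those of Farsb, Rars and Vars2, and in 32.4% of all PU.1 promoter peaks in HPs. All 5 peaks overlapped a PU.1 peak of MACs, as did 97.9% of all PU.1 promoter peaks in HPs. The peak of Ears2 was nearer to the TSS of its neighbour Ubfd1.

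In MACs PU.1 was listed at 17 cytosolic genes (85.0%) and 14 mitochondrial genes (93.3%), against 51.4% of all coding genes. The order of these shares was not stable. With a 5 kb window they were 19 of 20 and 14 of 15, and with only the peaks found in at least 2 lists 13 of 20 and 8 of 15, both with the lower share among the mitochondrial genes. The share of all coding genes was not counted under these rules. The cytosolic genes without PU.1 were Aars, Eprs and Sars, all of which had C/EBPβ. Dars among the cytosolic genes, and Aars2, Fars2, Iars2, Pars2 and Vars2 among the mitochondrial ones, had PU.1 without C/EBPβ. Lars2 (mitochondrial leucine) had neither, and was the 1 synthetase gene of 35 with no promoter peak in any of the 14 lists. Among all 21000 coding genes, 1448 had C/EBPβ without PU.1 in MACs, 4332 had PU.1 without C/EBPβ and 8754 had neither.

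Peaks were called against the inputs of each cell population, so both macrophage lists may share a control, and peaks near each other are described only. At 17 of the 25 synthetase genes with both factors (68.0%) a C/EBPβ peak overlapped a PU.1 peak, close to the 70.3% of all coding genes with both. The nearest C/EBPβ and PU.1 centres were 1 bp apart at Gars, 14 bp at Vars (valine), 29 bp at Mars1, 30 bp at Qars (glutamine), 18 bp at Cars2 and 20 bp at Rars2. They were 966 bp apart at Yars and 1111 bp apart at Mars2. The median was 138 bp over the 16 cytosolic genes with both factors and 278 bp over the 9 mitochondrial ones. The PU.1 letters matched in 3 of the 28 PU.1 peaks at cytosolic genes (10.7%) and 2 of the 19 at mitochondrial genes (10.5%), against 13.7% of all PU.1 promoter peaks in MACs. In HPs, Farsb alone had both factors, and there the peaks did not overlap, whereas they did at 107 of the 193 coding genes with both (55.4%).

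**Figure D5:**
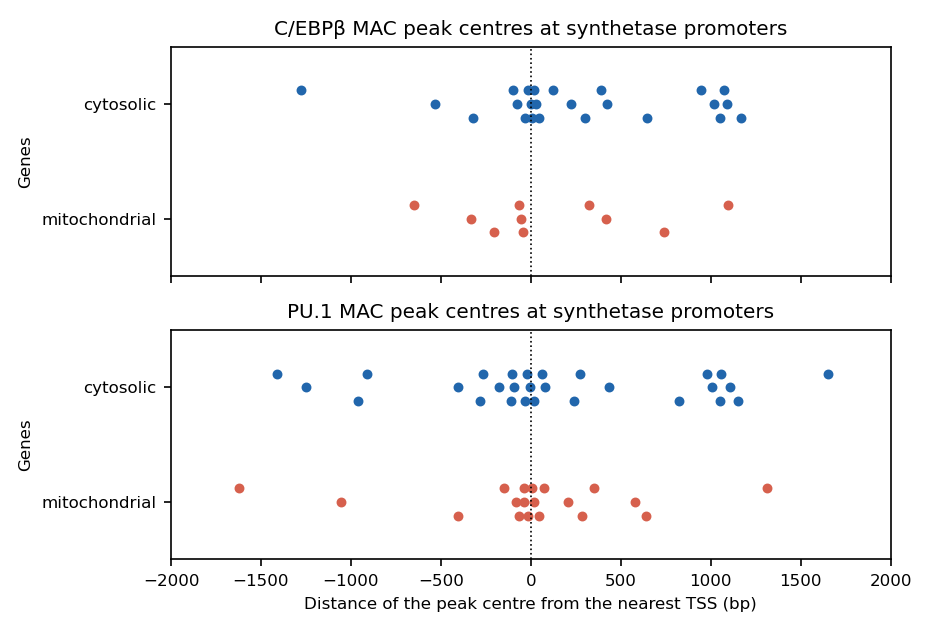
Distance of macrophage peak centres from the nearest TSS of the gene in bp (horizontal axis, dotted line at the TSS, negative values upstream) for C/EBPβ (top) and PU.1 (bottom). Each dot is 1 peak at a cytosolic (blue) or mitochondrial (orange) gene, with a vertical offset for legibility only. Of the PU.1 peaks at mitochondrial genes 10 of 19 lie within 200 bp, and 10 of the 24 C/EBPβ peaks at cytosolic genes lie within 200 bp.

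Among the remaining factors, RUNX1 and GFI1B in HPs were listed at shares of the synthetase genes close to those of all coding genes. RUNX1 in HPs was listed at 1 cytosolic gene, Gars (-76 bp), where its peak overlapped those of C/EBPβ in HPs and MACs and of PU.1 in MACs, against 3.20% of all coding genes. The peak did not hold the RUNX letters TGTGGTT, which matched in 13.8% of RUNX1 promoter peaks in HPs. GFI1B, a repressor, was listed in HPs at 1 mitochondrial gene, Cars2 (-135 bp), against 4.31%, and the GFI1B letters AATCNNNGC matched there and in 52.4% of GFI1B promoter peaks.

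ELK4, an ETS factor that works with serum response factor, was listed in MES at Nars (-94 bp), Vars (-29 bp) and Aars2 (-10 bp), 2 cytosolic genes (10.0%) and 1 mitochondrial gene (6.67%), against 1.92% of all coding genes. The ELK4 letters CCGGAAGT matched in the peak at Nars, which overlapped C/EBPβ in MES, and in 14.1% of ELK4 promoter peaks. No synthetase promoter was listed for RUNX1 in MACs (0.105% of all coding genes), for GATA2 in HBs (0.0190%) or HPs (0.757%), or for GATA1 in HPs (0.319%). At such shares of all genes an absence from 35 genes carries little information.

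Over the 490 combinations of gene and list, 87 were bound, 59 of 280 for cytosolic genes (21.1%) and 28 of 210 for mitochondrial genes (13.3%), against 8.32% for all coding genes. Outside MACs the counts were 23 of 220 (10.5%) and 5 of 165 (3.03%), against 2.47%, so the mitochondrial genes were close to all coding genes there. Farsb, Iars and Nars were bound in 5 lists each, Gars, Mars1, Sars and Yars in 4, and Aars, Cars, Rars, Vars, Cars2, Ears2 and Yars2 in 3. Of these 14 genes, 11 were cytosolic. The number of lists per gene was not counted for all coding genes, so these counts describe the synthetase genes only. Hars, Kars, Lars, Qars, Tars and Wars, for histidine, lysine, leucine, glutamine, threonine and tryptophan, were bound by C/EBPβ and PU.1 in MACs and in no other list, as was Farsa. At the other end, Dars, Eprs, Fars2, Iars2 and Pars2 were bound in 1 list each.

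With the gene span and 10 kb on each side, the cytosolic share of C/EBPβ stayed above the mitochondrial share in MES, HBs and HPs, but the mitochondrial genes were no longer all without a peak. C/EBPβ was then listed in MES at 7 cytosolic and 1 mitochondrial gene (Yars2), against 5.07% of all coding genes, and in HBs at 5 and 0, against 3.28%. In HEs it was listed at Aars and Hars2, against 0.481%. In HPs it was listed at 9 and 1, against 11.5%, and the mitochondrial gene was again Hars2. Some of these peaks lay at other genes. In HBs the peak counted for Mars1 was 21302 bp from its TSS and within 2 kb of the TSSs of Ddit3 and Mbd6. The HB peak counted for Aars overlapped the HE peak at a tRNA gene described next. The HP peak counted for Farsa was within 2 kb of the TSS of Calr.

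The peak counted for Aars in HEs lay 28717 bp from its TSS, at a tRNA gene. In that list 107 of 132 peaks (81.1%) were within 500 bp of an annotated tRNA gene. No promoter peak of a synthetase gene was at one in any list, but the HE list held no such promoter peak. In the other C/EBPβ lists 0.850% (MES), 9.51% (HB), 6.96% (HP) and 0.157% (MAC) of all peaks were at tRNA genes. The absence from the synthetase peaks is therefore near those shares. In MACs the wide rule gave C/EBPβ at 20 cytosolic and 14 mitochondrial genes, against 69.5%, and PU.1 at 20 and 15, against 76.9%. Lars2 had both by this rule. For PU.1 in HPs it gave 7 and 6, against 31.4%.

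For the remaining lists the wide rule gave RUNX1 in HPs at 1 cytosolic and 1 mitochondrial gene, against 6.09%, GFI1B at 0 and 4, against 9.33%, and ELK4 at 2 and 2, against 3.64%. GATA2 in HPs was listed at Cars alone, in an intron 34242 bp from the TSS, against 2.47%. RUNX1 in MACs (0.362%), GATA2 in HBs (0.310%) and GATA1 in HPs (1.28%) were listed at none. The 4 mitochondrial genes with GFI1B were Aars2, Cars2, Fars2 and Iars2. The wide rule favours long genes. The median span was 27.0 kb for cytosolic genes, 32.9 kb for mitochondrial genes and 17.7 kb for all coding genes, and Fars2 alone spans 420168 bp.

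Some promoters are shared, and a peak there cannot be assigned to 1 gene. Another coding TSS lay within 2 kb of the TSS of 5 cytosolic and 5 mitochondrial genes. Hars and Hars2 start 4 bp apart in opposite directions, so the same macrophage peaks of C/EBPβ and PU.1 were counted for both. Kars shares its promoter with Terf2ip (5 bp), Rars2 with Orc3 (15 bp), Wars with Wdr25 (98 bp) and Ears2 with Ubfd1 (112 bp). Of the 9 cytosolic genes bound by C/EBPβ before MACs, Yars was the only one with such a neighbour (S100pbp, 324 bp), although the HP peak of Aars was also centred within 2 kb of the TSS of Ddx19b. For all 18 C/EBPβ peaks at these genes before MACs, the nearest coding TSS was that of the synthetase gene.

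Related gene lists were counted in the same way. Of 21 genes for partners in tRNA charging and delivery, such as the complex scaffolds Aimp1 and Aimp2 and the elongation factors that carry charged tRNA to the ribosome, 0 were bound by C/EBPβ before MACs, which is close to the 4.44% of all coding genes. In MACs 12 (57.1%) had C/EBPβ, against 37.7%, and 15 (71.4%) had PU.1, against 51.4%. Eef1b2 was bound in the most lists (4), followed by Eef1a1, Gatc and Qrsl1 (3 each). Of 23 amino acid response genes, 10 (43.5%) were bound by C/EBPβ before MACs, against the same 4.44%, 9 of them with the composite letters in such a peak. In MACs 22 (95.7%) were bound, against 37.7%. Of the promoter peaks with the composite letters, 5 (13.2%) in MES, 2 (10.0%) in HBs and 8 (9.64%) in HPs were at amino acid response genes. These shares were near those at synthetase genes. Cebpg, Ddit3, Psat1 and Trib3 were bound in 5 lists each, and Psat1 was the only one of these 4 without C/EBPβ before MACs.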

How the data were processed

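The deposited files were 14 peak lists, 1 for each factor and stage, taken from the sample labels. The deposited values are peak starts and ends in bp on mm10 (GRCm38), used as the authors gave them, with no score. To make them, the authors trimmed reads with CutAdapt, aligned these with Bowtie, called peaks with MACS against the input of the same stage at p-value limits judged by eye at reference genes, refined them with polyPeak and gave every peak a width of 400 bp. For these tools, the version is not given in the sources used here. The depth behind each list was not used here.

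All 158488 peaks were 400 bp wide and ended within the GRCm38 chromosomes. TSSs were those of curated coding transcripts in the RefSeq annotation of GRCm38.p6 (25999 TSSs of 21000 genes). A gene was bound when a peak centre lay within 2 kb of a TSS, or within its span plus 10 kb. Shared peaks overlapped by at least 1 bp. Consensus letters were searched on both strands of the RefSeq sequence over the whole peak, beside all promoter peaks of the same list. The letters of each consensus are spelled out where first used. A peak was at a tRNA gene when its centre was within 500 bp of one of 425 annotated tRNA genes.

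Genes bound by a list of MES, HB, HE or HP, or by at least 3 lists, were named with positions, the other synthetase genes by list, and from each related gene list up to 6 bound in the most lists. The genes and the gene lists were chosen with earlier results of these data known. As every group holds 1 list, no test was made, and members are not replicates. Alternatives were other windows, all annotated transcripts, the nearest TSS only, peaks in at least 2 lists, removal of peaks at tRNA genes and of shared promoters, a 200 bp overlap and the middle 200 bp of each peak. The programs (Python 3.11.15, NumPy 2.4.6, Matplotlib 3.10.9) were tested on simulated data.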

Additional observations from a re-analysis of the deposited data

How the results depend on the processing

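Of 246 counts recomputed under the alternatives, 223 stayed within 1.5 times the reported value and 23 moved. Many of the reported counts were 0, and these could not change under alternatives that only removed peaks or genes. The 223 therefore include counts that were unable to move. The share of all coding genes bound was recounted under the wide rule only. With the gene span plus 10 kb, C/EBPβ was listed at 1 mitochondrial gene in MES and 1 in HPs (both 0 within 2 kb), at 5 cytosolic genes in HBs (3 within 2 kb) and at 14 mitochondrial genes in MACs (9 within 2 kb). With only the peaks found in at least 2 lists, PU.1 in MACs was listed at 8 of 15 mitochondrial genes in place of 14, and at 13 of 20 cytosolic genes, so that the order of the 2 shares turned. Without the genes that share a promoter, C/EBPβ in MACs was listed at 5 mitochondrial genes and PU.1 in MACs at 9, since 5 of the 15 genes were removed. The other 16 moved counts belonged to lists with few synthetase genes, 8 of them under the wide rule. Requiring the nearest coding TSS, a 200 bp overlap and the middle 200 bp of the peaks moved none. Removing peaks at tRNA genes could move none, since no promoter peak of a synthetase gene was at one. No paired analysis was possible because every group holds 1 list. No stricter peak threshold could be set, since the lists hold no score. An absence from a short list, such as C/EBPβ in HEs, may depend on its depth and its peak threshold, which was not tested. The paper gives the HE list the strictest peak threshold among the C/EBPβ lists and the MAC list the loosest. For C/EBPβ in MES and HBs it records no enrichment in its quantitative PCR check, so these lists lack that control.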
